A study of Homo sapiens with 12 samples.

Results

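Metallothioneins are small cysteine-rich proteins of the cytosol that bind zinc and copper, buffer the free metal in the cell and take up toxic metals such as cadmium. Their genes lie side by side in a cluster on chromosome 16, and their transcription is classically switched on by zinc through the metal-responsive transcription factor MTF1, which binds metal response elements in their promoters. Glucocorticoids are also known inducers of MT2A and other members. The 8 genes examined were MT2A and the 7 MT1 genes MT1A, MT1E, MT1F, MT1G, MT1H, MT1M and MT1X, chosen by gene symbol. All 8 are among the 19907 gene symbols with a value in each of the 12 libraries, and 6 of the 8 had the 10 reads in all that were needed for testing.

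mRNA was sequenced in MDA-MB-231 cells, an established triple-negative breast cancer (TNBC) line, that carried either the unaltered glucocorticoid receptor (wt-GR) or a receptor with the S134A change, a serine replaced by alanine (S134A-GR). The S134A-GR cells are clone #1 of a bi-allelic CRISPR knock-in that also changed the guide's PAM, and the wt-GR cells are a non-targeted clone recovered from the same edited population, so that each line is 1 clone and receptor genotype and clone cannot be told apart. All cells were starved for 18 h in medium with charcoal-stripped serum and then received either vehicle (Veh) or TGFβ1 at 10 ng/mL over 6 h, with no glucocorticoid added in any group. Each of the 4 groups had 3 libraries (wt-GR Veh, wt-GR TGFβ1, S134A-GR Veh and S134A-GR TGFβ1). The sources do not say whether the 3 are separate cultures, so the p-values measure only the spread between these samples.

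The libraries held between 56.4e6 and 129.8e6 counted reads, and the value of 3 reads, taken as the floor of detection, lay between 2.15 and 4.89 normalized counts. VIM and CD44, both typical of this mesenchymal line, were abundant in every library, and ESR1, CDH1, PTPRC (leukocyte), ALB (hepatocyte) and COL3A1 (fibroblast) stayed at or below 17.2 normalized counts. EPCAM, an epithelial marker, ranged from 965 to 1093 in wt-GR Veh and from 336 to 436 in S134A-GR Veh, and PECAM1, an endothelial marker that was nonetheless present in all libraries, from 1299 to 1454 and from 1079 to 1177. Of the 10 identity and other-cell markers tested under vehicle, 1 was called higher (ALB, near the floor) and 3 lower in S134A-GR cells (EPCAM, PECAM1 and NR3C1). Under TGFβ1 the same 3 were called lower and 1 higher, COL3A1, with 0.584 ± 0.525 normalized counts (SD, n = 3) in wt-GR TGFβ1 and 11.1 ± 6.77 in S134A-GR TGFβ1 (log2 difference 2.79, adjusted p = 0.0052, limma). The part of these differences in the metallothionein results was not tested. Between the lines, 51.5% of all genes tested were called under vehicle and 48.8% under TGFβ1. NR3C1, the receptor gene itself, averaged 11771 ± 1186 normalized counts (SD, n = 3) in wt-GR Veh and 8815 ± 259 in S134A-GR Veh, and gene counts do not show the changed codon.

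The members span 75.6 kb of chromosome 16 (hg38, 56608584 to 56684196), with MT2A at one end and MT1X at the other, and MT1G alone on the minus strand. Promoter sequence was at hand in the RefSeq table (GRCh38.p14) for 3 of the 8 members, and the 250 bases before each start are printed because they carry the metal response elements by which the family is known. Capitals mark matches, on either strand, to the element's core, spelled TGCACNC or TGCGCNC.
MT2A, chr16:56608334-56608583: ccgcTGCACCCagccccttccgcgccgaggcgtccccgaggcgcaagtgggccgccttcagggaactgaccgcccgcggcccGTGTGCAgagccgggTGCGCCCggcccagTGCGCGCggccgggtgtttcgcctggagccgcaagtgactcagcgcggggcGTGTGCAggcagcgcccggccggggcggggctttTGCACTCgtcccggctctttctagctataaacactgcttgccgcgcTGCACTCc
MT1X, chr16:56682220-56682469: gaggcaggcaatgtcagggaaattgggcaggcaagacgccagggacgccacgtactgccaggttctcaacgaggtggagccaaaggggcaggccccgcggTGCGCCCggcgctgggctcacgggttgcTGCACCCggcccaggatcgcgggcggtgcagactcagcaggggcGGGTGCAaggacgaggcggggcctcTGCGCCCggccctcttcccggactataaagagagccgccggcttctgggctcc
MT1H, chr16:56669564-56669813: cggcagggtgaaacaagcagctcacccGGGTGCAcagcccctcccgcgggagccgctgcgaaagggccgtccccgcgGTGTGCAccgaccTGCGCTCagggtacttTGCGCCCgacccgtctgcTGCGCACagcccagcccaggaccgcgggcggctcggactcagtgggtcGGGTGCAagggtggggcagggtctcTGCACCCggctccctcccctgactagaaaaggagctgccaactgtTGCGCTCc
The core matched 7 times in MT2A, 4 times in MT1X and 8 times in MT1H. At least 1 match was found in 24.8% of the 35116 promoters of the table, and at least 4 in 0.370%. The MT2A stretch also held 1 match to the AP-1 site TGAGTCA, which 4.20% of all promoters hold, and neither of the other promoters held it. MT1H, with the most core matches, was at the floor of detection in these cells, while MT2A and MT1X were abundant. A match describes the letters only.

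Levels within the family differed by several orders of magnitude. MT2A, the isoform that most tissues express, was by far the most abundant. Under vehicle in wt-GR cells it reached 172162 ± 20050 normalized counts per kb of its transcript (SD, n = 3), which was rank 21 of 16578 genes with a length, and in S134A-GR TGFβ1 it reached 244917 ± 23012 and rank 8. MT1E followed with 18375 ± 1398 per kb in wt-GR Veh, rank 303, and MT1X with 8945 ± 993, rank 708. MT1F stood at 233 ± 28.5 per kb (rank 9050) and MT1G at 79.8 ± 28.1 (rank 10826) in the same group. The order MT2A, MT1E, MT1X held in all 4 groups, and neighbours in it did not overlap. MT1F stood above MT1G in both wt-GR groups and below it in both S134A-GR groups. The canonical MT1E transcript has 746 bases and 2 exons, and those of the other members have 396 to 425 bases and 3 exons. The level per kb and the rank of MT1E therefore rest on an unlike transcript model.

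**Figure D1:**
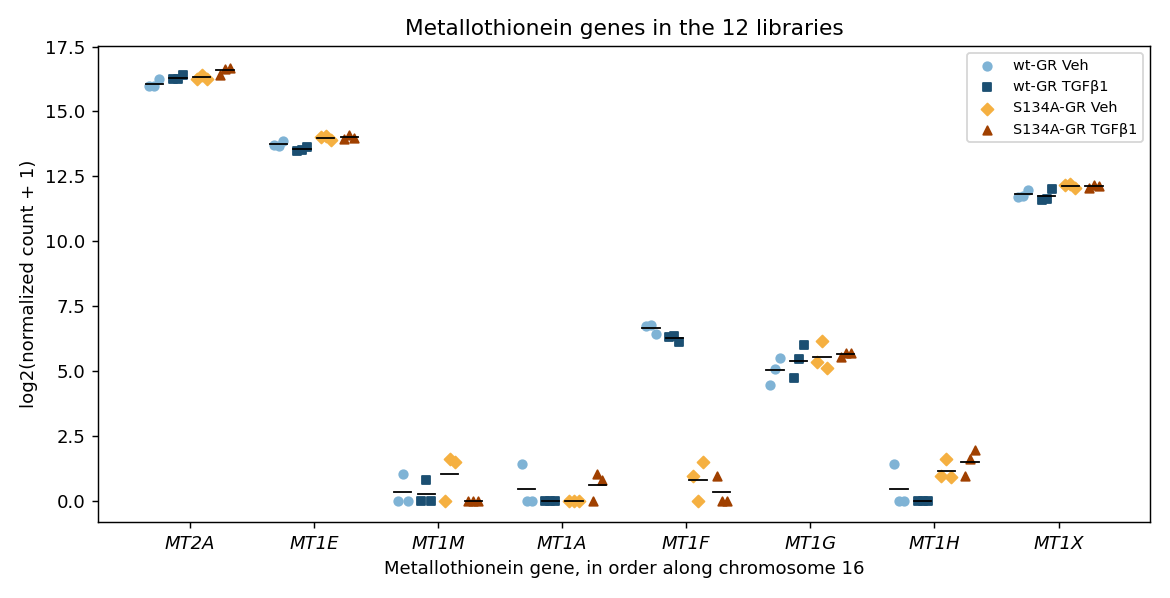
Every library's log2(normalized count + 1) for the 8 metallothionein genes in chromosomal order, with points for libraries, colours for the 4 groups and a short line for each group mean (n = 3). MT2A, MT1E and MT1X lie far above the rest in all groups, MT1A, MT1M and MT1H lie near 0, and MT1F separates the wt-GR from the S134A-GR libraries.

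MT1A, MT1M and MT1H were close to silent. MT1A had 3 reads in the 12 libraries together and MT1M had 6, so neither was tested. MT1H had 12 reads in all, 1 of them from the wt-GR line and 11 from the S134A-GR line, and only 1 library (S134A-GR TGFβ1 replicate 3, with 4 reads) passed the floor of 3 reads, so no fold is given for it. Of the family's other genes, MT1B, MT1L and MT1JP were also in the files and were barely detected, with group means of at most 13.3 normalized counts. MT1L had 1 to 4 reads in 11 libraries and 32 reads in S134A-GR Veh replicate 2. None of these 3 was called in any comparison, with adjusted p from 0.0791 to 0.653 between the lines under vehicle (limma). MT3, MT4, MT1HL1 and the pseudogenes MT1DP, MT1CP and MT1XP1 were not among the gene symbols with values, so they were not analysed here.

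The genes resemble each other in sequence, which bears on how reads are assigned. Over the canonical transcripts, none of the 75-base stretches (the read length) of MT2A, MT1F or MT1A occurred anywhere else in the transcripts or primary chromosomes. Of the stretches, 11.9% were shared in MT1E, 6.55% in MT1G, 10.8% in MT1H and 36.1% in MT1X, whose shared stretches lie mostly in an unnamed gene that overlaps it on the same strand. Stretches found elsewhere on the primary chromosomes made up 11.9% in MT1E, 10.8% in MT1H, 3.94% in MT1X and 2.38% in MT1G. How reads with several matches, or reads over overlapping genes, were counted is not given in the sources used here. The values of MT1X, MT1E, MT1G and MT1H are uncertain to that extent.

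The comparison of S134A-GR with wt-GR cells under vehicle asks what differs between the lines before any stimulus. The abundant members MT2A, MT1E and MT1X were each slightly higher in S134A-GR cells, and MT1F, which encodes a further MT1 isoform, was all but absent from them. Of the 6 members tested, 3 were called higher and 1 lower at an adjusted p under 0.05 (limma, Benjamini-Hochberg over 18579 genes). Of all genes tested, 51.5% were called in this comparison, 25.0% higher and 26.5% lower, so a count of 4 in 6 lies near the background. The members' median log2 difference was 0.28, between those of MT1E and MT1X, and that of all genes was 0.02. The members' median includes MT1H, which was at the floor of detection and whose difference lay above those of MT1E and MT1X.

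MT1F was the exception in size. In wt-GR Veh its normalized counts were 104.3, 107.8 and 85.3, from 64, 102 and 81 reads. In S134A-GR Veh they were 0.943, 0 and 1.78, from 1, 0 and 2 reads. No S134A-GR library came near any wt-GR library. After TGFβ1 the wt-GR libraries held 77.8, 80.6 and 68.2 normalized counts, and the S134A-GR libraries held 1 read in replicate 1 and none in replicates 2 and 3. Summed over the groups, 247 reads stood against 3 under vehicle, a ratio of 104.0 per unit of depth with an exact 95% counting interval from 35.2 to 508. Under TGFβ1, 247 reads stood against 1, a ratio of 261 with an interval from 46.5 to 10366. The intervals cover counting error only, and they treat every read as independent. The counted reads per library exceed the average that the paper gives per sample. Whether both reads of a pair were counted separately is not given in the sources used here, and if they were, the intervals are too narrow.

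On the log2(value + 1) scale, which sets the size of a difference from a near-zero group, MT1F was lower in S134A-GR cells by −5.83 ± 0.42 (SE) under vehicle (adjusted p = 5.1e-08) and by −5.93 ± 0.42 under TGFβ1 (adjusted p = 4.6e-08, limma). Only 4.45% of all genes were called lower by a log2 of at least 1 under vehicle, and 4.58% under TGFβ1. The call held in each of the 12 fits that left out a library and in the 10 other alternatives, in both treatments. MT1F met the filter of 10 reads through the wt-GR libraries alone. With almost no reads on the S134A-GR side, fits of these same libraries could hardly lose the call and are not separate support for it. MT1F begins 49.1 kb from MT2A and lies between MT1B and MT1G. MT1G, 58.1 kb from MT2A, was detected in every S134A-GR library.

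MT2A stood at 63863, 64949 and 78300 normalized counts in wt-GR Veh and at 78932, 87895 and 77354 in S134A-GR Veh. The ranges overlap, because wt-GR Veh replicate 3 was above S134A-GR Veh replicate 3. The difference was 0.24 ± 0.08 on the log2 scale (SE), a fold of 1.18 (95% interval 1.05 to 1.34, adjusted p = 0.0232, limma). It was not called without wt-GR Veh replicate 1 (adjusted p = 0.0891) or replicate 2 (0.0953), without S134A-GR Veh replicate 2 (0.106), or in a fit of only these groups (0.0508), with limma in each case.

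MT1E, the expressed gene nearest to MT2A, read 13283, 12945 and 14896 in wt-GR Veh and 16457, 16930 and 15305 in S134A-GR Veh. The groups did not overlap, and the difference was 0.25 ± 0.06 on the log2 scale, a fold of 1.19 (95% interval 1.08 to 1.30, adjusted p = 0.0043, limma). MT1X read 3314, 3457 and 4070 against 4564, 4687 and 4261, again with no overlap, and differed by 0.32 ± 0.09, a fold of 1.25 (1.09 to 1.44, adjusted p = 0.0105, limma). In wt-GR Veh, replicate 3 was the highest of the 3 libraries for MT2A, MT1E, MT1X and MT1G alike. The same held for replicate 3 of wt-GR TGFβ1 and replicate 2 of S134A-GR Veh. In S134A-GR TGFβ1, replicate 2 was highest for MT1E, MT1X and MT1G, and replicate 3 for MT2A. These genes thus varied together between libraries, so their calls are not separate evidence. Both the MT1E and the MT1X call held in every alternative.

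MT1G was low and variable. Its normalized counts were 21.2, 32.8 and 44.2 in wt-GR Veh and 39.6, 69.9 and 33.9 in S134A-GR Veh, which overlap. The log2 difference of 0.52 ± 0.36 was not called (adjusted p = 0.242, limma), and its 95% interval ran from −0.24 to 1.29, which includes both 0 and the differences of MT1E and MT1X.

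**Figure D2:**
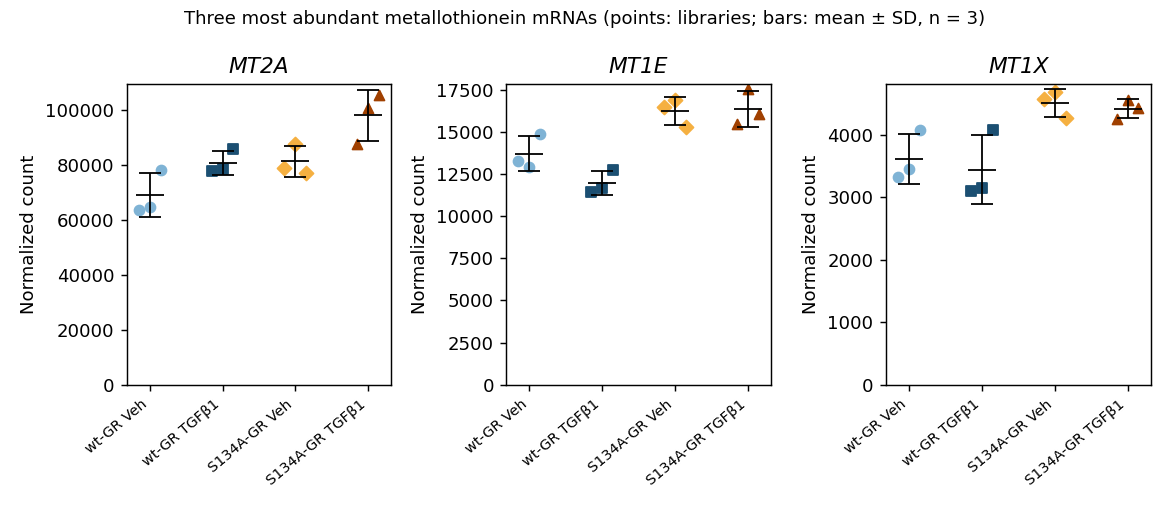
Normalized counts of MT2A, MT1E and MT1X on axes that start at 0, with a point per library and the mean ± SD (n = 3) per group. S134A-GR libraries lie above wt-GR libraries of the same treatment, except that the vehicle groups of MT2A overlap, and MT2A has its highest mean, 98212, in S134A-GR TGFβ1.

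Under TGFβ1 the same 4 members were called between the lines, 3 higher and 1 lower in S134A-GR cells. Of all genes, 48.8% were called, 23.1% higher and 25.7% lower, and the members' median log2 difference was 0.32 against 0.01 for all genes. The members' median again includes MT1H, at the floor of detection. Of the 3 that were higher, MT1E had the largest log2 difference, with 11421, 11698 and 12759 normalized counts in wt-GR TGFβ1 and 15486, 17558 and 16089 in S134A-GR TGFβ1. It differed by 0.45 ± 0.06 on the log2 scale, a fold of 1.37 (95% interval 1.25 to 1.50, adjusted p = 3.2e-05, limma).

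MT2A read 78025, 78688 and 86057 in wt-GR TGFβ1 and 87932, 100924 and 105780 in S134A-GR TGFβ1. These did not overlap, and the log2 difference was 0.28 ± 0.08, a fold of 1.21 (1.07 to 1.37, adjusted p = 0.0119, limma), a call lost without S134A-GR TGFβ1 replicate 3 (adjusted p = 0.0605). MT1X read 3097, 3139 and 4072 against 4250, 4554 and 4432 and differed by 0.37 ± 0.09, a fold of 1.29 (1.12 to 1.49, adjusted p = 0.0046, limma). MT1G read 25.6, 42.5 and 62.1 against 45.7, 50.6 and 50.1, which overlap (log2 difference 0.25 ± 0.36, adjusted p = 0.598, limma).

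Summed over the 8 members, the normalized counts averaged 86492 ± 9453 (SD, n = 3) in wt-GR Veh, 96438 ± 5721 in wt-GR TGFβ1, 102180 ± 6591 in S134A-GR Veh and 119054 ± 9954 in S134A-GR TGFβ1. MT2A supplied 78.9 to 84.2% of the sum in every library, so the sum follows MT2A. The ratio of S134A-GR to wt-GR means was 1.18 under vehicle and 1.23 under TGFβ1. MT1E supplied 15.9 ± 0.594% in wt-GR Veh and 12.4 ± 0.0828% in wt-GR TGFβ1, and 15.9 ± 0.514% and 13.8 ± 0.918% in the S134A-GR groups. In all, the members took 0.0878 to 0.141% of a library's reads. These sums are a description, with no test.

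**Figure D3:**
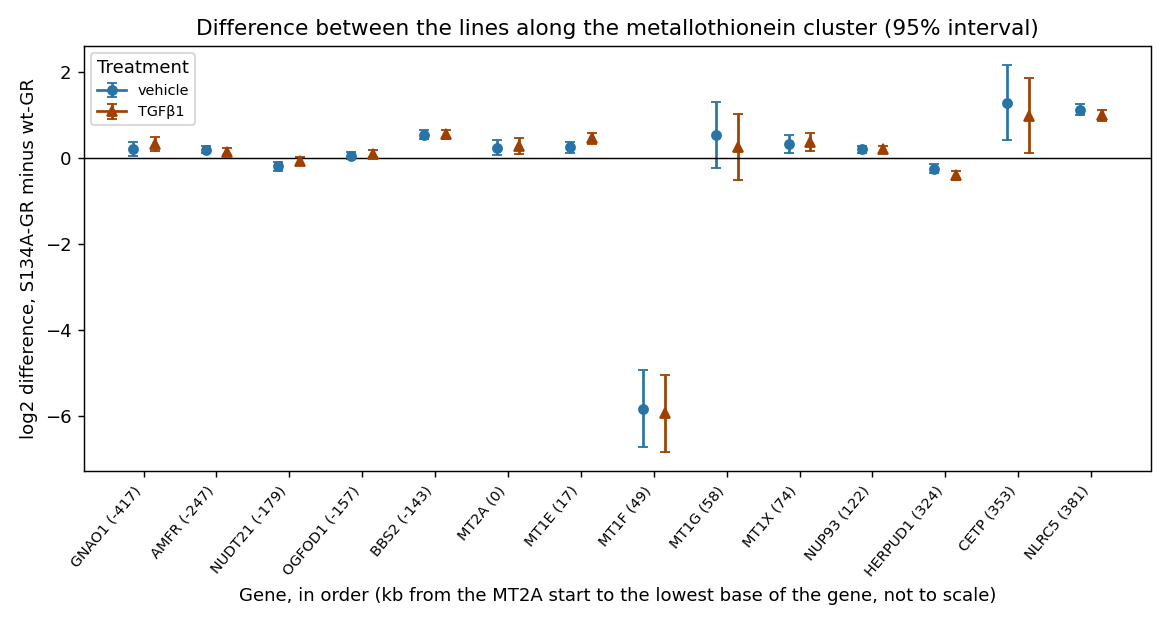
Log2 difference between S134A-GR and wt-GR cells (95% interval, limma) under vehicle and TGFβ1 for tested metallothionein genes and for 9 neighbouring genes, in order along chromosome 16, with distances in kb from the MT2A start. MT1F lies near −6 in both treatments, while MT2A, MT1E and MT1X on either side of it lie between 0.24 and 0.45.

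The genes on either side of the cluster were compared in the same way. Of 10 neighbours, 6 were called higher and 2 lower in the S134A-GR line under vehicle, against 25.0% and 26.5% of all genes. Their median log2 difference was 0.20, and that of all genes was 0.02. The members of smallest adjusted p were NLRC5, an activator of MHC class I genes, with 2754 ± 125 normalized counts in wt-GR Veh and 5979 ± 368 in S134A-GR Veh (log2 difference 1.12, adjusted p = 4.2e-09), BBS2, a part of the ciliary BBSome (0.54, adjusted p = 6.1e-07), and NUP93, a nuclear pore subunit that is the nearest neighbour beyond MT1X (0.21, adjusted p = 0.00034, limma). None of the 10 was near absent from S134A-GR cells while expressed in wt-GR cells, as MT1F was.

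The comparison of TGFβ1 with vehicle asks how the members responded within each line. In wt-GR cells, 1 of the 6 tested was called, MT1E, which fell. Of all genes, 21.0% were called in this comparison, 11.2% higher and 9.82% lower. In S134A-GR cells, 1 of the 6 was called, MT2A, which rose, against 18.7% of all genes, 10.0% higher and 8.69% lower. These counts of 1 in 6 lie near the background. The members' median log2 difference was −0.14 in wt-GR and 0.06 in S134A-GR cells, and that of all genes was −0.00459 and −0.00972. The members' medians include MT1H, at the floor of detection, and in S134A-GR cells also MT1F, which was near absent there.

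The MT1E change in wt-GR cells, from 13708 ± 1043 to 11959 ± 706 normalized counts (SD, n = 3), was −0.20 ± 0.06 on the log2 scale, a fold of 0.873 (95% interval 0.796 to 0.958, adjusted p = 0.0384, limma). The groups did not overlap. The call was lost without wt-GR Veh replicate 3 (adjusted p = 0.126), wt-GR TGFβ1 replicate 1 (0.147) or replicate 2 (0.114), or S134A-GR Veh replicate 1 (0.0526), and in a fit of only the wt-GR groups (0.0884), with limma in each case. In S134A-GR cells MT1E stood at 16231 ± 836 and 16378 ± 1066, a log2 difference of 0.01 ± 0.06 (adjusted p = 0.933, limma).

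MT2A averaged 81393 ± 5685 in S134A-GR Veh and 98212 ± 9228 in S134A-GR TGFβ1, with no overlap, a log2 difference of 0.27 ± 0.08 and a fold of 1.20 (1.07 to 1.36, adjusted p = 0.0339, limma). The call was lost without S134A-GR Veh replicate 1 (adjusted p = 0.112) or replicate 3 (0.125), S134A-GR TGFβ1 replicate 2 (0.1000) or replicate 3 (0.130), and in a fit of only these groups (0.0891). In wt-GR cells MT2A averaged 69037 ± 8040 and 80923 ± 4458, with overlap, and the log2 difference of 0.23 ± 0.08 just missed the threshold (adjusted p = 0.0577, limma). It was called with a replicate block (adjusted p = 0.0298), with DESeq2 (0.0188), without wt-GR Veh replicate 3 (0.0044) and without S134A-GR TGFβ1 replicate 1 (0.0336).

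MT1F, measurable in wt-GR cells only, averaged 99.1 ± 12.1 and 75.5 ± 6.46 normalized counts. These groups did not overlap, but the log2 difference of −0.38 ± 0.42 was not called (adjusted p = 0.587, limma). The SE is shared with the S134A-GR libraries near 0, and the adjusted p was 0.168 in a fit of only the wt-GR groups and 0.0680 with a pseudocount of 16. The 247 reads in each of the wt-GR groups came from libraries of unequal depth. MT1X changed by −0.08 ± 0.09 in wt-GR and by −0.03 ± 0.09 in S134A-GR cells, and MT1G by 0.37 ± 0.36 and 0.10 ± 0.36, and none of these was called.

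**Figure D4:**
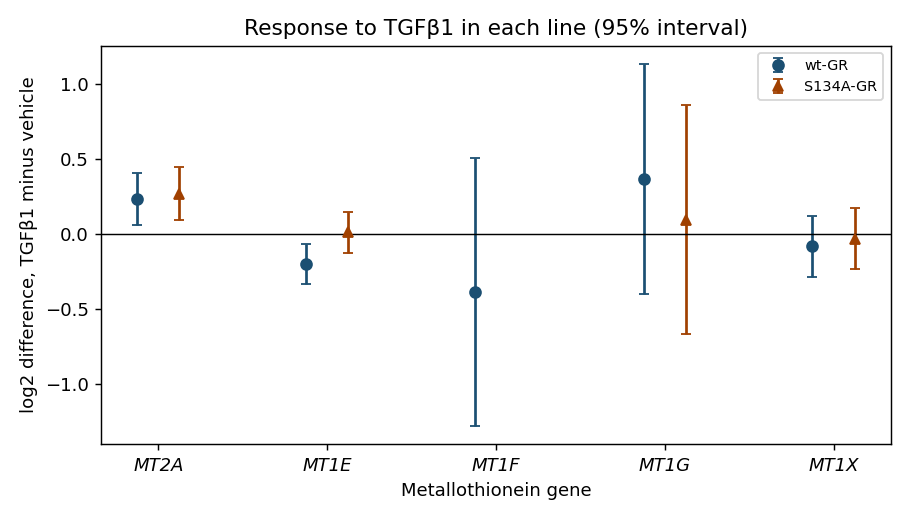
Log2 difference between TGFβ1 and vehicle (95% interval, limma) in wt-GR and S134A-GR cells for MT2A, MT1E, MT1F, MT1G and MT1X, with MT1F shown for wt-GR only because S134A-GR cells held at most 2 reads of it per library. The MT2A intervals lie above 0 in both lines, the MT1E interval lies below 0 in wt-GR cells alone, and the wide MT1F and MT1G intervals cross 0.

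Whether the lines differed in their response to TGFβ1 was tested as the difference of the log2 differences. None of the 6 members was called by limma, edgeR or DESeq2, and 0.414% of all genes were called by limma. At an unadjusted p under 0.05 limma gave 1 member, MT1E, at 0.21 ± 0.09 (unadjusted p = 0.0335, adjusted p = 0.499). For MT2A the difference in response was 0.03 ± 0.12 with a 95% interval from −0.21 to 0.28 on the log2 scale, and for MT1X it was 0.05 ± 0.13 (−0.24 to 0.34). The MT1E and MT2A calls in a single line are therefore not shown to differ between the lines.

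Genes that set the supply and sensing of metal were counted from fixed lists. MTF1 itself, the zinc sensor that drives metallothionein transcription, averaged 2590 ± 225 normalized counts in wt-GR Veh, 2526 ± 67.0 in wt-GR TGFβ1, 2472 ± 33.8 in S134A-GR Veh and 2569 ± 170 in S134A-GR TGFβ1, and was not called in any of the 5 comparisons (adjusted p from 0.416 to 0.797, limma). SLC30A1, a zinc exporter of the plasma membrane and a well-known MTF1 target, averaged 1574 ± 116, 1086 ± 69.2, 1175 ± 95.9 and 974 ± 139 in the same order. It was lower in S134A-GR Veh than in wt-GR Veh (log2 difference −0.42, adjusted p = 0.0021) and fell with TGFβ1 in wt-GR cells (−0.53, adjusted p = 0.0011), while its difference of −0.28 in S134A-GR cells was not called (adjusted p = 0.0629, limma), and the difference between these responses was not called either (adjusted p = 0.591). SLC30A1 was lower under vehicle in the line in which MT2A, MT1E and MT1X were higher, and a link between these levels was not tested. Between the lines under TGFβ1, SLC30A1 was not called (log2 difference −0.16, adjusted p = 0.183, limma) and its groups overlapped, while MT2A, MT1E and MT1X were called higher there too.

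Of the 7 zinc exporters tested (SLC30A genes), 1 was called higher and 4 lower in the S134A-GR line under vehicle, with a median log2 difference of −0.18. In that comparison 25.0% of all genes were called higher and 26.5% lower, with a median of 0.02. With SLC30A1, the exporters of smallest adjusted p were SLC30A6 (−0.50, adjusted p = 3.1e-06) and SLC30A5 (−0.36, adjusted p = 1.8e-05, limma), which are known to carry zinc into the secretory pathway. Of 12 zinc importers tested (SLC39A genes), 2 were called higher and 6 lower in that comparison, with a median of −0.13. SLC39A10 was lower (−0.57, adjusted p = 4.1e-07), SLC39A4, the importer mutated in acrodermatitis enteropathica, was higher (0.76, adjusted p = 2.0e-06), and SLC39A14 was lower (−0.24, adjusted p = 0.00027, limma). With TGFβ1, 5 of the 12 importers were called higher and 1 lower in each line, and 1 exporter was called higher in each line, with 2 lower in wt-GR and 1 in S134A-GR cells. The shares of all genes were 11.2% higher and 9.82% lower in wt-GR cells, and 10.0% and 8.69% in S134A-GR cells.

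Of 10 genes of metal sensing and copper handling, 4 were called higher and 1 lower in the S134A-GR line under vehicle, against 25.0% and 26.5% of all genes. None of the 10 was called with TGFβ1 in either line (2 against 0 at an unadjusted p under 0.05, limma). The share of all genes called with TGFβ1 was 21.0% in wt-GR and 18.7% in S134A-GR cells. The leading genes were SLC31A2, a copper transporter, with 1012 ± 79.6 normalized counts in wt-GR Veh and 1861 ± 74.5 in S134A-GR Veh (log2 difference 0.88, adjusted p = 5.0e-08), the copper chaperones ATOX1 (0.39, adjusted p = 8.9e-05) and CCS (0.47, adjusted p = 0.00010, limma). Of 11 genes of the oxidative stress response, which metals also evoke, 3 were called higher and 4 lower under vehicle, against the same 25.0% and 26.5%. GCLM, a subunit of the enzyme that starts glutathione synthesis, was lower in S134A-GR cells (−0.61, adjusted p = 1.7e-07), as were NFE2L2, the NRF2 factor (−0.45, adjusted p = 3.5e-07), and HMOX1, heme oxygenase (−0.46, adjusted p = 6.6e-06, limma). HMOX1 rose with TGFβ1 in both lines, from 2035 ± 101 to 3595 ± 122 in wt-GR and from 1475 ± 90.8 to 2251 ± 61.1 in S134A-GR cells. None of these listed genes was called for the difference in response.

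**Figure D5:**
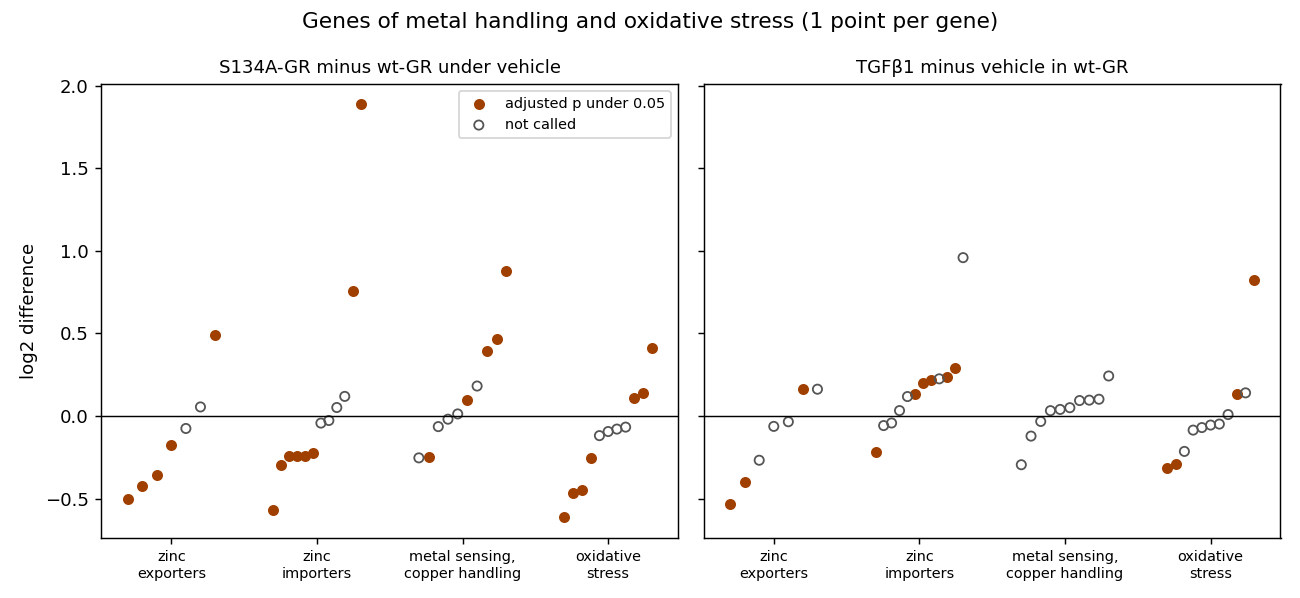
Log2 differences of zinc exporters, zinc importers, genes of metal sensing and copper handling and genes of the oxidative stress response, 1 point per gene tested, for S134A-GR against wt-GR under vehicle (left) and TGFβ1 against vehicle in wt-GR cells (right), with filled points for an adjusted p under 0.05 (limma). In the left panel 4 of 7 exporters and 6 of 12 importers are called lower, against 26.5% of all genes. In the right panel no gene of metal sensing and copper handling is called, against 21.0% of all genes.

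Among the members whose log2 CPM averaged 1 or more (MT2A, MT1E and MT1X), MT2A was both the most abundant per length and the one whose group means ranged widest. Likeness to it was measured as the root-mean-square difference of log2(value + 1), each gene centred on its mean over the 12 libraries, across 11643 genes. Among the closest were MTFP1, a mitochondrial fission protein (0.0643), and MAP3K7CL (0.0760), where the median gene was at 0.265. MTFP1 averaged 4142 ± 252 in wt-GR Veh, 4790 ± 146 in wt-GR TGFβ1, 5114 ± 207 in S134A-GR Veh and 5872 ± 214 in S134A-GR TGFβ1. The likeness is a description over the same 12 libraries.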

How the data were processed

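RNA from 12 libraries was prepared with a TruSeq kit and sequenced as 75-base paired-end reads. Per gene symbol, the deposited file of each library gives a signal, the normalized count. The authors trimmed the reads, aligned them to hg38 by HISAT2, counted them by featureCounts and scaled the counts by the size factors of DESeq2 (1.22.2). The HISAT2 version, annotation, strand setting and treatment of multiply matching reads are not given in the sources used here.

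Every nonzero value was a whole multiple (tolerance 0.001) of its library's step, which gave back whole reads (100% of values). Genes with at least 10 reads in all (18579) were fitted as log2(value + 1) with limma 3.58.1 (R 4.3.3), 4 group means, empirical Bayes with trend and Benjamini-Hochberg adjustment, and called at 0.05. Fold changes are on that scale, which understates changes of low genes. The edgeR 4.0.16 quasi-likelihood test and DESeq2 1.42.0 were run on the recovered reads, and the tools were tested on simulated data. Lengths and positions are those of GENCODE 44 canonical transcripts. Replicates of a group differed beyond sampling noise (chi-square over its degrees of freedom, 8.69 to 43.7).

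The members and lists were chosen with earlier results of these data known. Named beside the members are the 3 genes of smallest adjusted p under vehicle in each list, MTF1, NR3C1, HMOX1 and, of the 3 genes closest to MT2A in profile, all but 1, which is not reported here. SLC39A5 and SLC12A3, with low counts, are counted only. PGR was not among the gene symbols with values, so it was not analysed here.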

Additional observations from a re-analysis of the deposited data

How the results depend on the processing

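Of 502 alternative values of the log2 differences of MT2A, MT1E, MT1X, MT1G and MT1F, 468 kept their direction and their side of the threshold, 15 lost a call, 4 gained one and 15 changed sign, none of the last being a called difference. The sign changes came from leaving out a library, and the values then ran from −0.0389 to −0.0294 for the MT1E response in S134A-GR cells, reached −0.0750 for MT1G between the lines under TGFβ1, −0.110 for the MT1G response in S134A-GR cells, 0.00983 for the MT1X response in wt-GR cells and 0.000185 for that in S134A-GR cells, and, for the difference in response, ran from 0.00171 to 0.0346 for MT1G, from −0.0390 to −0.00979 for MT1X and from −0.0591 to −0.000699 for MT2A. Over all fits that left out a library, these differences ran from −0.0389 to 0.0517, −0.0750 to 0.550, −0.110 to 0.403, −0.207 to 0.00983, −0.0686 to 0.000185, −0.597 to 0.0346, −0.0390 to 0.178 and −0.0591 to 0.112 in the same order.

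The number of members called between the lines was 3 to 4 under vehicle and 3 to 5 under TGFβ1 with a library left out. MT1H, at the floor, was the added gene. For TGFβ1 in wt-GR cells the count of 1 became 2 with DESeq2, 2 with a replicate block and 0 in a fit of only the wt-GR groups, and ran from 0 to 2 with a library left out. For TGFβ1 in S134A-GR cells it became 0 in a fit of only those groups and ran from 0 to 1 with a library left out. The cause was not tested. No member was called for the difference in response under any alternative. The replicate block changed no other member's call, and same-numbered libraries deviated together little (mean r 0.0158 over 18 pairs against −0.00789 over 36 pairs of different number, across 15387 genes). Such values cannot decide whether same-numbered libraries share a culture or a day, which is not given in the sources used here. Without MT2A the ratio of the summed level after TGFβ1 to that under vehicle was 0.889 in wt-GR and 1.00 in S134A-GR cells, against 1.11 and 1.17 with it. The adjusted p of the uncalled MT1F response in wt-GR cells ran from 0.0680 to 0.702 over the 10 alternatives that kept all libraries of the groups compared. MT1G had 13 to 70 reads per library, and MT1F had 64 to 110 in the wt-GR libraries, so counting error alone is larger in them than in MT2A, MT1E and MT1X.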
